A study of Homo sapiens with 6 samples.

Results

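The hypoxia response genes and regulators of hypoxia-inducible factor (HIF) examined here were HIF1A, EGLN1, EGLN3, VEGFA, CA9, ADM, NDRG1, BNIP3, ANKRD37 and KDM3A, a set given by gene symbol. Of these 10 genes 9 were measured, among 33616 named genes in all. A gene was read by the probe set that the array's gene table gives to that symbol alone, and where a gene had several, by that of the highest mean signal on the 6 arrays together. No probe set was named CA9 in that table, so this gene, a carbonic anhydrase of the cell surface, was not analysed here.

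The arrays came from HepG2, a line of human liver cancer cells with much of the gene expression of hepatocytes. The cells were transfected with 30 nM of a scrambled siRNA (3 arrays) or of an siRNA against UHMK1 (3 arrays), both with the same lipid reagent, and total RNA was taken 24 h later. UHMK1 is a serine/threonine kinase that carries a U2AF homology motif and is known to act on splicing factors. The labels name 1 cell line, no siRNA sequence and no second UHMK1 siRNA, and they leave unsaid whether each array stands for its own culture. The p-values therefore rest on the spread among these arrays, which may be technical. Neither group is labelled as kept at low oxygen, and the sources used here give no oxygen level for the cultures.

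HIF is a transcription factor made of an oxygen-sensitive alpha subunit, such as HIF1A or EPAS1, and the partner ARNT. In oxygenated cells EGLN prolyl hydroxylases mark the alpha subunit, the VHL ubiquitin ligase destroys it, and HIF1AN hydroxylates it so that it binds its coactivators less well. When oxygen falls the subunit accumulates and switches on genes for blood vessel growth, glycolysis, pH control and mitochondrial turnover, among them EGLN1 and EGLN3 themselves. Much of this control acts on the HIF protein, which these arrays did not measure. The comparison asked whether transcripts of the sensors, the subunit and its targets had different levels in cells given the UHMK1 siRNA.

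HIF is known to bind a short DNA core, ACGTG or GCGTG. The 250 bases upstream of the RefSeq gene start (GRCh38.p14) were searched for ACGTG on both strands, and overlapping matches, as in CACGTG, which holds the letters on both strands, were taken as 1 site. Of the 9 measured genes 7 are in that sequence table, and 3 of these, EGLN1, BNIP3 and ANKRD37, hold such a site. Among all 27305 windows, 1 per symbol, 18.7% hold one. VEGFA and NDRG1 are not in the table. Shown are the windows of those 3 genes, which did not pass the test of the arrays, and that of BHLHE40, a hypoxia-induced transcription factor gene outside the set that fell after UHMK1 siRNA and holds the same letters; capitals mark each match to ACGTG on either strand.
EGLN1 (chr1:231422288-231422537, minus strand): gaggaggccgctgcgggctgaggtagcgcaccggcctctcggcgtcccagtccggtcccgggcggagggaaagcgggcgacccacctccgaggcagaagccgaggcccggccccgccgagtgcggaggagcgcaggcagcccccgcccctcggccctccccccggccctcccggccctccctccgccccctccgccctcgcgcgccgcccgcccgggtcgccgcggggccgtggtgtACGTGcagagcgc
BNIP3 (chr10:131981924-131982173, minus strand): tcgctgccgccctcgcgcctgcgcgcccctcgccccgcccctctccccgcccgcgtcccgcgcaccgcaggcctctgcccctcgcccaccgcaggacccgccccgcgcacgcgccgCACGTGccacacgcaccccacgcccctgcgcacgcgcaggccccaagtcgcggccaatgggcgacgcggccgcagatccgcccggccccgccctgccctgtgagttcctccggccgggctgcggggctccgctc
ANKRD37 (chr4:185396591-185396840, plus strand): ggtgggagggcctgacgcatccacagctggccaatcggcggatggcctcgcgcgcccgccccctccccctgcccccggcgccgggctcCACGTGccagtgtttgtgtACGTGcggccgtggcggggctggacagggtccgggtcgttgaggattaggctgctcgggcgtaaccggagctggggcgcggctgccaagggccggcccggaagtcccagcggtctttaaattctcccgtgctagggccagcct
BHLHE40 (chr3:4979187-4979436, plus strand): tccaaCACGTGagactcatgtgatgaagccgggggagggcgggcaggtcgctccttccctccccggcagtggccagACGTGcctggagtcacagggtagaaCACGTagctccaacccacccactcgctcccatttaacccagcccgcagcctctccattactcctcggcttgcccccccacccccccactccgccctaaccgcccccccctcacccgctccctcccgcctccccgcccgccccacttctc
The EGLN1 match begins 13 bases before the start and the BNIP3 match 134 bases before it. ANKRD37 has matches that begin 162 and 143 bases before the start, while BHLHE40 has them at 245, 174 and 149 bases. Windows with 2 or more sites make up 2.69% of the table. Of the 9 pathway genes outside the set that fell, 6 hold a site in the first window listed and 3 do not: EPO, SLC2A1 and PDK1. The second window listed for PDK1 holds 2 sites, which begin 17 and 8 bases before its start. In the first windows listed for HIF1A, EGLN3, ADM and KDM3A the letters ACGTG were not found. The second windows listed for HIF1A and KDM3A do not hold them either. The first windows of HIF1A, ADM and KDM3A hold 1 match each when GCGTG is also allowed, and that of EGLN3 holds 0. With GCGTG also allowed, 43.1% of all windows hold a match, so these letters are common upstream of genes, and a match is a description of the sequence and not of binding.

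Values are the deposited log2 signals. A difference is UHMK1 siRNA minus scrambled siRNA, tested with limma across all 33616 genes with Benjamini-Hochberg adjustment, and only genes with an adjusted p under 0.05 are said to have risen or fallen. The label of the siRNA was borne out by its target: UHMK1 stood at 11.42, 11.24 and 11.74 on the scrambled siRNA arrays and at 8.36, 7.80 and 7.94 on the UHMK1 siRNA arrays, a difference of -3.43 (SE 0.20, limma adjusted p = 0.000112). All 8 measured hepatocyte markers had a mean log2 signal of 14.36 or more, and the 5 endothelial markers lay between 3.50 and 6.19. Of the 5 measured immune markers CD68 and LYZ were bright (LYZ at 18.38 on average), while PTPRC, which defines leukocytes, lay at 5.04. Of the fibroblast and stellate markers COL1A1 was bright, at 10.19. Of the 23 markers measured 0 passed limma's test and 3 had an unadjusted p under 0.05: FGB (0.70) and LRAT (0.39) were higher and LYZ (-0.48) was lower. UHMK1 siRNA array 2 stood apart: its median deviation from the scrambled siRNA mean was -0.24 over the 5503 genes with a mean log2 signal above 10 and -0.18 over the 8040 genes between 6 and 10. UHMK1 siRNA arrays 1 and 3 lay between -0.06 and -0.01 in both ranges. Differences of the hypoxia genes are therefore also given without array 2.

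Of the 9 hypoxia genes 0 rose and 0 fell after UHMK1 siRNA in limma, and 0 had an unadjusted p under 0.05. Over all tested genes 3.39% passed, 2.67% lower and 0.726% higher, and 15.3% had an unadjusted p under 0.05. The adjusted p-values of the 9 genes ranged from 0.455 for NDRG1 to 0.964 for HIF1A. Their differences ran from -0.34 for KDM3A to 0.27 for NDRG1, with a median of -0.03, against -0.02 over all genes. Without regard to sign the median was 0.25, against 0.18 over all genes. The smallest difference among the genes that passed was 0.60 in size, which is 1.52-fold. All 9 95% confidence intervals lay within 1 log2 unit of 0, that is, within 2-fold either way on the deposited scale, as did 88.5% of those of all genes. A gene that missed the threshold is not shown to be unchanged. The arrays read bulk RNA, so a change in a share of the cells and a change in RNA per cell cannot be told apart.

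**Figure D1:**
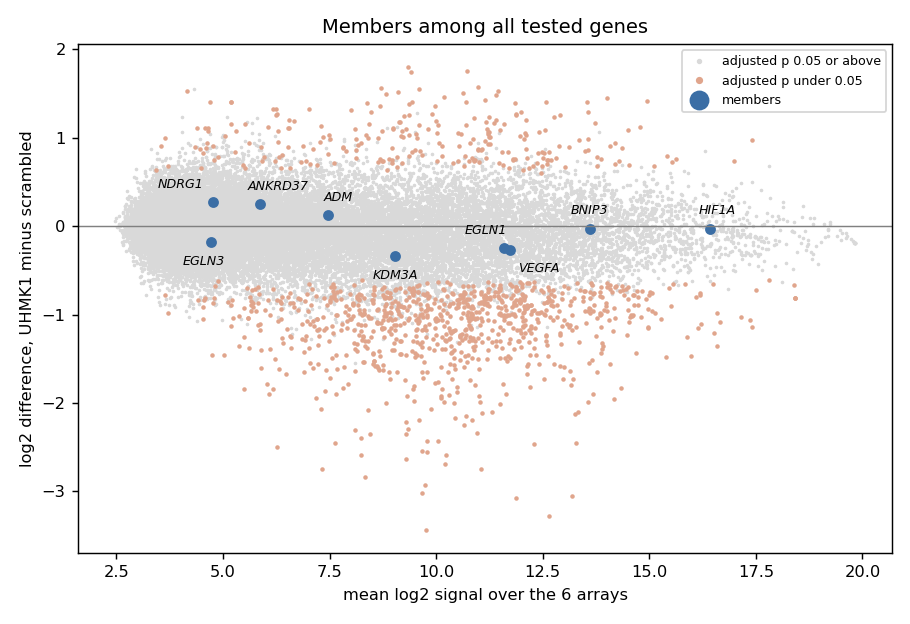
Each point is 1 of the 33616 tested genes, with its mean log2 signal over the 6 arrays on the x axis and its log2 difference, UHMK1 siRNA minus scrambled siRNA, on the y axis. The 9 hypoxia genes (blue) lie between -0.34 and 0.27, inside the grey band of genes that did not pass, and genes that passed (orange) are mostly below 0.

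HIF1A, the oxygen-regulated subunit, gave a bright signal that did not separate the groups. It stood at 16.56, 16.46 and 16.32 on the scrambled siRNA arrays and at 16.22, 16.50 and 16.54 on the UHMK1 siRNA arrays. The lowest and the second highest of the 6 values both belong to UHMK1 siRNA arrays, and the groups overlap. The difference was -0.03 (SE 0.16, 95% confidence interval -0.38 to 0.33, adjusted p = 0.964), a ratio of 0.982 with an interval from 0.768 to 1.26. With 1 array left out it lay between -0.09 and 0.07, at -0.07 without array 2, and its sign turned to 0.03 without scrambled siRNA array 1 and 0.07 without UHMK1 siRNA array 1.

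The prolyl hydroxylase EGLN1, the main oxygen sensor of the HIF pathway in most cells, was slightly lower on every UHMK1 siRNA array. Its log2 signal was 11.75, 11.68 and 11.73 after scrambled siRNA and 11.50, 11.31 and 11.60 after UHMK1 siRNA. The groups do not overlap, and UHMK1 siRNA array 2 gave the lowest value. The difference of -0.25 (SE 0.15, 95% confidence interval -0.58 to 0.08) had an adjusted p = 0.488, and it was -0.17 without that array. The exact two-sided permutation test gave p = 0.1, the smallest that 3 against 3 arrays allow. Among all genes 13.3% were lower and 7.74% higher without overlap between groups, so a lower group without overlap, as here and for VEGFA, is common on these arrays.

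EGLN3, a prolyl hydroxylase that HIF induces strongly in many cells, was read by 3 probe sets, all of low signal. The brightest gave 4.90, 4.72 and 4.78 after scrambled siRNA and 4.78, 4.38 and 4.72 after UHMK1 siRNA. Those groups overlap at 4.72 and 4.78, and only array 2 lies below all the scrambled siRNA values. The difference was -0.17 (SE 0.16, adjusted p = 0.695) and -0.05 without array 2. The other probe sets pointed upward: the second gave 4.17, 4.34 and 3.97 against 4.30, 4.26 and 4.66, a difference of 0.25, and the third gave 3.69, 3.51 and 3.50 against 3.73, 3.93 and 3.59, a difference of 0.18. In a fit over all 36176 probe sets with 1 symbol their adjusted p-values were 0.702, 0.586 and 0.667 in order of brightness, so the direction for EGLN3 depends on the probe set and none passed. Of all tested genes 41.0% had a lower mean signal than EGLN3, and the deposited table holds no detection call, so whether the transcript was above background is not known.

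Of the secreted vascular factors, VEGFA, the growth factor for blood vessels, resembled EGLN1. Its signals were 11.90, 11.82 and 11.91 with scrambled siRNA and 11.75, 11.39 and 11.67 with UHMK1 siRNA. The groups do not overlap, and array 2 again gave the lowest value. The difference was -0.27 (SE 0.15, 95% confidence interval -0.62 to 0.07, adjusted p = 0.468), or -0.17 without array 2, and the exact permutation p was 0.1. ADM, the vasodilator peptide adrenomedullin, gave 7.29, 7.19 and 7.69 in the scrambled siRNA group and 7.70, 7.67 and 7.18 in the UHMK1 siRNA group. Each group has arrays near 7.2 and near 7.7, and the difference was 0.13 (SE 0.20, adjusted p = 0.839), or 0.05 without array 2.

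BNIP3, a mitochondrial protein that marks mitochondria for removal by autophagy, gave nearly equal means. Its values were 13.42, 13.68 and 13.74 after scrambled siRNA and 13.62, 13.61 and 13.52 after UHMK1 siRNA. All 3 UHMK1 siRNA values lie inside the range of the scrambled siRNA arrays. The difference was -0.03 (SE 0.15, 95% confidence interval -0.37 to 0.31, adjusted p = 0.956), and it was -0.04 without UHMK1 siRNA array 2 and 0.03 without scrambled siRNA array 3. On array 2 BNIP3 lay at 0.00 from the scrambled siRNA mean, while HIF1A lay 0.05 above it, so these bright genes did not share that array's lower median.

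KDM3A, a histone demethylase that removes methyl groups from lysine 9 of histone H3, had the widest spread of the set. The scrambled siRNA arrays read 9.24, 9.24 and 9.14, and the UHMK1 siRNA arrays read 9.30, 8.33 and 8.98. Array 1 gave the highest of all 6 values and array 2 the lowest. The difference was -0.34 (SE 0.23, 95% confidence interval -0.86 to 0.19, adjusted p = 0.569), and it shrank to -0.07 without array 2, where KDM3A lay at -0.88 from the scrambled siRNA mean. The residual SD was 0.352, against a median of 0.222 over all genes and 0.107 for EGLN1, the lowest of the 9.

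NDRG1, a stress-responsive gene that HIF induces in many tumour cells, had a low signal and was the 1 gene of the set that was higher without overlap. Scrambled siRNA arrays gave 4.76, 4.70 and 4.46, and UHMK1 siRNA arrays gave 4.83, 4.96 and 4.95. The gap between the groups, from 4.76 to 4.83, is smaller than the spread within the scrambled siRNA group. The difference was 0.27 (SE 0.15, 95% confidence interval -0.07 to 0.61, adjusted p = 0.455; exact permutation p = 0.1), and 0.25 without array 2. ANKRD37, a small ankyrin repeat protein known as a HIF target, read 5.71, 5.62 and 5.93 with scrambled siRNA and 5.93, 6.31 and 5.77 with UHMK1 siRNA. Its groups meet at 5.93, array 2 is the highest, and the difference of 0.25 (SE 0.18, adjusted p = 0.593) was 0.10 without that array. NDRG1, ANKRD37 and EGLN3 are the 3 genes of the set with a mean log2 signal under 6, where few genes passed. Of the 20073 genes at 6 or lower 0.384% did, against 11.3% of those above 10. Without a detection call, whether the NDRG1 and ANKRD37 transcripts were above background is not known either.

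**Figure D2:**
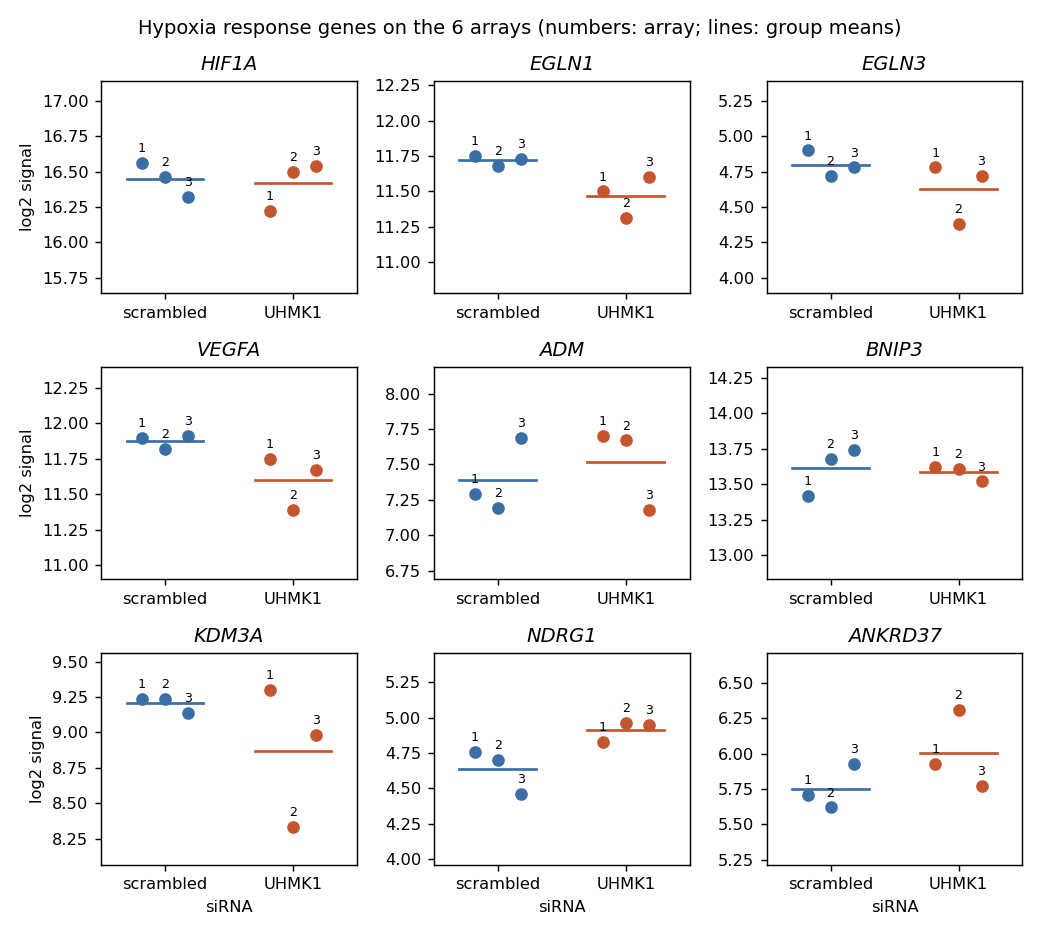
Each panel shows 1 hypoxia gene, with its log2 signal on the 3 scrambled siRNA arrays (blue) and the 3 UHMK1 siRNA arrays (red) as numbered points and the group means as lines; every y axis spans 1.5 log2 units. The groups separate for EGLN1, VEGFA and NDRG1 by small gaps, and array 2 is the lowest UHMK1 siRNA point for EGLN1, EGLN3, VEGFA and KDM3A.

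**Figure D3:**
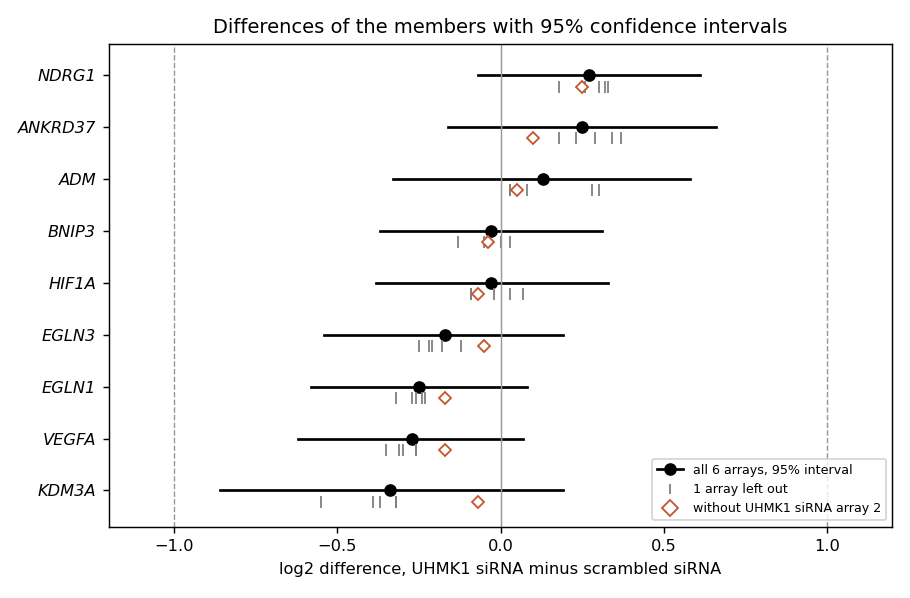
Black points give, for UHMK1 siRNA against scrambled siRNA, the log2 differences with 95% confidence intervals for the 9 hypoxia genes; grey ticks leave out 1 array each and red diamonds leave out UHMK1 siRNA array 2. Every interval includes 0 and stays inside the dashed lines at 1 log2 unit, and the diamonds for KDM3A (-0.07), EGLN1 (-0.17) and VEGFA (-0.17) lie nearer to 0 than the points.

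Other genes of the pathway did include falls. Their lists were written by role from general knowledge, with earlier results of these data known, so their counts are no independent support. Of 51 measured genes that are not glycolytic, RBX1, EPO, BHLHE40, LOX, INSIG2 and WSB1 fell and 0 rose, while 45 did not pass. That is 11.8% lower, against 2.67% of all genes, and the median difference was -0.16, against -0.02. These medians are not matched for brightness. Brighter genes passed more often: of the 26 with a mean log2 signal above 10, 3 fell (11.5%), where 9.14% of all such genes did, and of the 14 between 6 and 10, 3 fell (21.4%), where 4.34% did. At an unadjusted p under 0.05, 6 of the 51 were higher and 10 lower, where 5.21% and 10.1% of all genes were. Whether these genes and the 9 hypoxia genes differ in their response was not tested.

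Among regulators of HIF turnover, RBX1, the RING subunit of the ubiquitin ligase that VHL recruits and of many other cullin ligases, fell by 1.51 (SE 0.19, adjusted p = 0.00410). Its signals were 11.32, 11.53 and 11.11 with scrambled siRNA and 10.15, 9.62 and 9.65 with UHMK1 siRNA. The lowest scrambled siRNA value is well above the highest UHMK1 siRNA value. VHL itself, named after its values were seen, stood at -0.52 (adjusted p = 0.359) with overlapping groups. Of the 11 genes of turnover and cofactors RBX1 alone passed. Among the other oxygen sensors HIF1AN, the asparagine hydroxylase, stood at -0.73 (SE 0.21, adjusted p = 0.117), with values of 11.91, 12.00 and 11.84 against 11.36, 10.71 and 11.49. It did not pass, although the groups do not overlap, and it stood at -0.49 without UHMK1 siRNA array 2. EPAS1, the alpha subunit of HIF-2, stood at -0.49 with or without that array (SE 0.15 and adjusted p = 0.128 with all arrays). Its groups do not overlap either, with values of 14.08, 14.33 and 14.30 against 13.69, 13.74 and 13.81. When limma tested only genes with a mean log2 signal above 6, HIF1AN (adjusted p = 0.0406) and EPAS1 (adjusted p = 0.0394) passed as lower. EPAS1 also passed with an intensity trend and robust priors (adjusted p = 0.0265). Calls over all genes rose too, from 1141 of 33616 to 2087 of 13543 with the filter and 1685 of 33616 with the trend. ARNT, named after its values were seen, stood at 0.50 (adjusted p = 0.199).

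EPO, the hormone erythropoietin and the classic oxygen-regulated gene of liver and kidney, fell by 1.10 (SE 0.15, adjusted p = 0.00515). The scrambled siRNA arrays read 7.33, 7.35 and 7.51 and the UHMK1 siRNA arrays 6.32, 6.14 and 6.42, which is 0.465 of the scrambled siRNA level with an interval from 0.368 to 0.589. The highest UHMK1 siRNA value, 6.42, lies well below the lowest scrambled siRNA value, 7.33. It was the 1 fall among 7 measured secreted and vascular genes outside the set, and the interval of its log2 difference was -1.44 to -0.76. EPO was named because it passed, and whether its response differs from that of VEGFA was not tested. Of the pH genes CA12, a carbonic anhydrase, was the 1 measured, at 0.17 (adjusted p = 0.738).

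BHLHE40, a transcriptional repressor that hypoxia and many other stimuli induce, fell by 1.40 (SE 0.23, adjusted p = 0.0119), from 11.03, 11.26 and 11.10 to 10.13, 9.22 and 9.83. The groups are far apart, with array 2 again the lowest. It did not pass without scrambled siRNA array 2 (-1.34, adjusted p = 0.0661) or scrambled siRNA array 3 (-1.42, adjusted p = 0.0532). The other 7 genes of chromatin and transcription did not pass. Of the mitochondrial genes 0 of 5 passed in limma and 1 was higher at an unadjusted p under 0.05: BNIP3L, the close relative of BNIP3, at 0.46 (SE 0.17, adjusted p = 0.217). Without UHMK1 siRNA array 2 KDM5B, a histone demethylase, rose by 0.77 (adjusted p = 0.0334) and LONP1, a mitochondrial protease, fell by 0.87 (adjusted p = 0.0428), both named after their values were seen.

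Among 13 genes of stress and matrix LOX, INSIG2 and WSB1 fell. LOX, which cross-links collagen, fell by 1.68 (SE 0.22, adjusted p = 0.00464), from 7.55, 7.48 and 6.89 to 5.31, 5.87 and 5.71. INSIG2, which holds the sterol sensor in the endoplasmic reticulum, fell by 1.49 (SE 0.16, adjusted p = 0.00178), from 12.43, 12.34 and 12.66 to 11.13, 10.87 and 10.96. In both genes every UHMK1 siRNA value lies at least 1 log2 unit below every scrambled siRNA value. WSB1, a SOCS box protein of a ubiquitin ligase, fell by 1.11 (SE 0.20, adjusted p = 0.0170), from 9.78, 9.44 and 9.50 to 8.83, 8.26 and 8.29. WSB1 did not pass without scrambled siRNA array 1 (-1.01), 2 (-1.18) or 3 (-1.15) or without UHMK1 siRNA array 3 (-1.03), at adjusted p-values between 0.0592 and 0.0849. RBX1, EPO, LOX and INSIG2 passed with any 1 array left out.

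Of 18 measured glycolytic HIF targets 3 fell and 0 rose, which is 16.7% lower, against 2.67% of all genes. An unadjusted p under 0.05 in limma was reached by 7 that were lower and 0 that were higher. Over all genes these shares were 10.1% lower and 5.21% higher. Brightness counts here too: of the 12 with a mean log2 signal above 10, 2 fell (16.7%), where 9.14% of all such genes did. The list was written with earlier results for HK2, SLC2A1 and PDK1 known, so it is no independent support. Its median was -0.32, against -0.02 over all genes. Of its differences 16 were below 0, as were those of 18210 of all 33616 genes. The list's 12 genes above 10 lie where UHMK1 siRNA array 2 had a median deviation of -0.24. The comparison with all genes is not matched for brightness, and whether the list differs beyond that was not tested. HK2, the hexokinase typical of tumours, showed the largest fall of the list, to 0.140 of the scrambled siRNA level, and the other 15 genes of the list did not pass. PDK1, which restrains the entry of pyruvate into mitochondria, fell by 0.84 (adjusted p = 0.0324). It did not pass without scrambled siRNA array 1 (-0.75), 2 (-0.94) or 3 (-0.84) or without UHMK1 siRNA array 2 (-0.75) or 3 (-0.84), at adjusted p-values between 0.0736 and 0.138. With an intensity trend and robust priors in limma, SLC2A3 (-0.45, adjusted p = 0.0285) and LDHA (-0.37, adjusted p = 0.0150) also passed, both named after their values were seen. In that setting 1685 of all 33616 genes passed, against 1141 in the main fit.

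**Figure D4:**
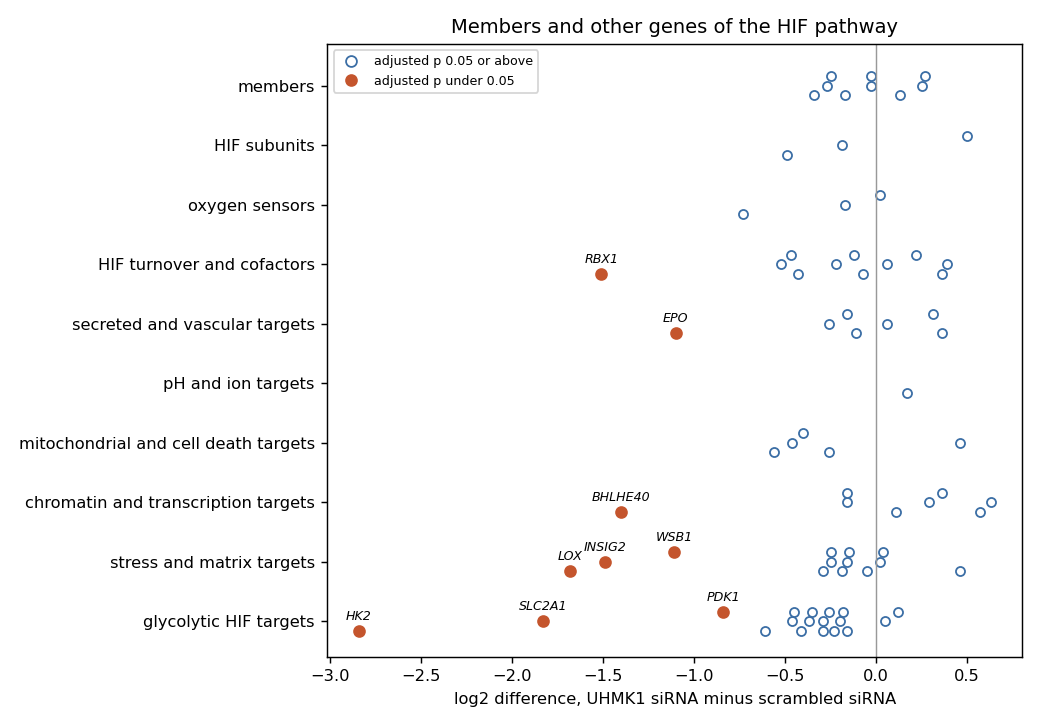
Each circle is 1 gene, placed by its log2 difference, UHMK1 siRNA minus scrambled siRNA; the top row holds the 9 hypoxia genes and the other rows the remaining genes of each role, with filled red circles and names where the adjusted p was under 0.05. The top row stays between -0.34 and 0.27, while 6 named genes of the middle rows and 3 of the glycolytic row lie at -0.84 or lower.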

How the data were processed

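Total RNA of 6 HepG2 samples was hybridised as biotin-labelled cRNA to Affymetrix arrays, per the labels' protocols. The authors' deposited values are log2 signals for 135750 probe sets, which the submitters' processing notes credit to RMA in Transcriptome Analysis Console 4.0. Such processing can alter the size of changes, and fold sizes are those of this scale. The highest value was 19.93 on every array except UHMK1 siRNA array 2, where it was 19.36. Whether values were capped is not known. The sources used here give no genome build for the probe sets. The gene table names 36176 probe sets with 1 symbol, 1119 with several and leaves 98455 unnamed; symbols were updated by Entrez ID through RefSeq. This gave 33616 genes. No array repeated another's values.

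The groups were compared in R 4.3.3 with limma 3.58.1 (lmFit, eBayes, two-sided, no covariates), after a check on simulated data. Exact permutation tests are over arrays. The hypoxia genes and all lists were chosen with earlier results of these data known. Named were UHMK1, every hypoxia gene and, in each role list, the genes that passed or else the one with the smallest p. Lists are described by counts and medians. Alternatives were quantile and cyclic loess normalization, other probe set rules, a filter at a mean of 6, protein-coding genes, a variance trend, a replicate block and leaving out each array. The number of arrays limits precision.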

Additional observations from a re-analysis of the deposited data

How the results depend on the processing

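Under 14 other settings none of the 9 hypoxia genes passed limma's test; the lowest adjusted p among 123 values was 0.239, for VEGFA. ADM, ANKRD37 and NDRG1 stayed above 0 and EGLN1, VEGFA and KDM3A below 0 in each setting that tested them. At 2 decimals the sign turned 5 times, leaving aside values of BNIP3 that rounded to 0.00: for HIF1A without scrambled siRNA array 1 (0.03) or UHMK1 siRNA array 1 (0.07), within a range of -0.09 to 0.07 with 1 array left out, for BNIP3 without scrambled siRNA array 3 (0.03), within -0.13 to 0.03, and for EGLN3 with the mean of its probe sets (0.09) or the first by ID (0.18). Of the other non-glycolytic pathway genes the 6 falls became 8 with the filter at a mean of 6, 7 with an intensity trend and robust priors and 4 to 7 with 1 array left out. Of the same genes 2 rose with the filter at a mean of 6 (RORA and PLOD2, named after their values were seen), 1 among protein-coding genes only (RORA), 1 with an intensity trend and robust priors (PLOD2), and 0 to 1 with 1 array left out. Over all 33616 genes 1141 passed, 244 higher and 897 lower. With the filter, which tests fewer genes, 2087 of 13543 passed, 517 higher and 1570 lower. Among protein-coding genes only, also fewer, 1721 of 17338 passed, 395 higher and 1326 lower. With an intensity trend and robust priors 1685 of the 33616 passed, 400 higher and 1285 lower. The pathway genes gained in these settings were gained where more of all genes passed. Leaving out 1 array gave 389 to 899 calls, 70 to 237 higher and 319 to 662 lower. With the replicate number as a block 722 passed, 146 higher and 576 lower. Same-numbered arrays did not deviate together (correlations of 0.09, 0.02 and -0.07 over 13543 genes). Arrays of different numbers gave -0.15 to 0.13. With 3 arrays per group these correlations cannot tell whether the samples were paired. The block changed no call of a hypoxia or pathway gene named above. UHMK1 passed in every setting.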
